A study of Homo sapiens with 4 samples.

Results

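The genes of the core spliceosome were examined as 52 genes chosen by name, covering the Sm proteins (7 genes), the U1 snRNP (4 genes), the U2 snRNP with its SF3 and U2AF partners (13 genes), the U4/U6.U5 tri-snRNP and B complex (13 genes), the PRP19 complex with the catalytic-step factors (11 genes) and the minor spliceosome (4 genes). The choice by name used no measured value in its rule, but it was made with earlier results of these data known. All 52 were matched among the 60675 genes of the count files, and all 52 passed the filter on low counts that 17600 genes passed. The RNA came from LNCaP, a human prostate cancer cell line that responds to androgen, after 72 h with 1 nM of the synthetic androgen R1881 in phenol red-free medium with 10% hormone-depleted serum. One group received R1881 with the DMSO vehicle (2 libraries) and the other R1881 with 50 µM CPI-455, an inhibitor of the KDM5 family of histone H3 lysine 4 demethylases (2 libraries). Every library therefore carries the androgen, and the comparison is of androgen with and without the inhibitor. The replicates are biological replicates of one cell line, so the spread describes cultures of that line only.

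The spliceosome removes introns from pre-mRNA and is assembled anew on each intron from small nuclear ribonucleoproteins (snRNPs), each made of a small nuclear RNA and its proteins. The Sm proteins form a ring around the U1, U2, U4 and U5 RNAs, U1 marks the 5′ splice site, U2 with SF3A and SF3B binds the branch point, and the tri-snRNP then brings in the RNAs of the catalytic centre. RNA helicases named PRP or DHX remodel the complex at each step, and a separate minor spliceosome removes a small class of introns with distinct splice sites.

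The vehicle libraries held 19623553 and 20690819 counted fragments and the CPI-455 libraries 9522920 and 5401588, so the shallowest library had a detection floor of 0.555 CPM at 3 counts against 0.145 in the deepest. Levels are given as CPM, that is counts scaled to the library total, after TMM scaling, and each change as the log2 fold change of CPI-455 over vehicle with its standard error. Across genes the replicates had a Pearson correlation of 0.993 with vehicle and 0.946 with CPI-455 on the log2 scale. Of the prostate luminal markers, KLK3, KLK2, TMPRSS2, FOLH1, HOXB13, KRT8 and KRT18 were counted in every library, and 4 of these 7 (KLK3, FOLH1, HOXB13 and KRT8) were called lower with CPI-455, while basal KRT5 had 0 counts in all 4. Of the other markers of basal, immune, endothelial and stromal cells, TP63, PTPRC, PECAM1 and COL3A1 held at most 8 counts in any library. COL1A1 held 105 and 88 counts in the vehicle libraries and 90 and 39 in the CPI-455 libraries (log2 1.00, called higher). The neuroendocrine marker CHGA held 120 and 136 against 16 and 16 (log2 -1.32, called lower), and SYP held 83 and 116 against 78 and 30 (log2 0.69, not called). VIM, usually a mesenchymal marker, was abundant, with counts of 13757 and 16088 in the vehicle libraries and of 11892 and 7666 in the CPI-455 libraries, and was called higher (log2 1.04). The part of these markers in the changes below was not tested.

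CPI-455 was accompanied by changes in both directions among the core spliceosome genes, with all genes of the Sm ring except SNRPB higher. Outside the ring the largest rises were those of U2AF1, ZRSR2 and SNRPA1, and the largest falls those of DHX8, AQR and SF3B4. In edgeR's quasi-likelihood test a gene was termed called when it passed both an FDR of 0.05 and a 2-fold change, and by this rule 9 of the 52 genes were higher with CPI-455. They were SNRPF, SNRPE, SNRPD1, SNRPA1, U2AF1, SART1, DHX38, SYF2 and ZRSR2. The genes called lower were 4, namely SF3B4, PRPF4, AQR and DHX8. These are 17.3% and 7.69% of the genes, against 21.0% called higher and 21.3% called lower among all 17600 genes tested. All 52 genes are protein-coding, and of the 13813 protein-coding genes tested 15.6% were called higher and 24.4% lower. The share called higher therefore lay between these 2 backgrounds. The split of 9 higher and 4 lower became 15 and 4 with upper-quartile normalization, 5 and 4 with library totals alone and 6 and 4 with no filter. Since whole cultures were sequenced, fewer cells expressing a gene and less RNA per cell cannot be told apart.

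At any fold, 23 of the 52 genes (44.2%) passed an FDR below 0.05 in the higher direction and 12 (23.1%) in the lower. Of these, 22 changed by less than 2-fold. The shares of all genes were 29.8% and 32.8%, and those of the protein-coding genes tested 26.3% and 38.7%. Both CPI-455 libraries lay above both vehicle libraries for 27 of the 52 genes and below them for 19, with 6 genes overlapping. The corresponding shares of all genes tested were 39.1% above and 42.8% below. The median log2 fold change of the 52 genes was 0.20 (interquartile range -0.36 to 0.88), beside -0.04 for all genes and -0.21 for the 13813 protein-coding genes tested. Without CPI-455 replicate 1 the median of the 52 genes was 0.12. When each gene was tested against a 2-fold change with glmTreat, SNRPF, SNRPA1, U2AF1 and ZRSR2 remained higher and DHX8 and AQR remained lower.

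**Figure D1:**
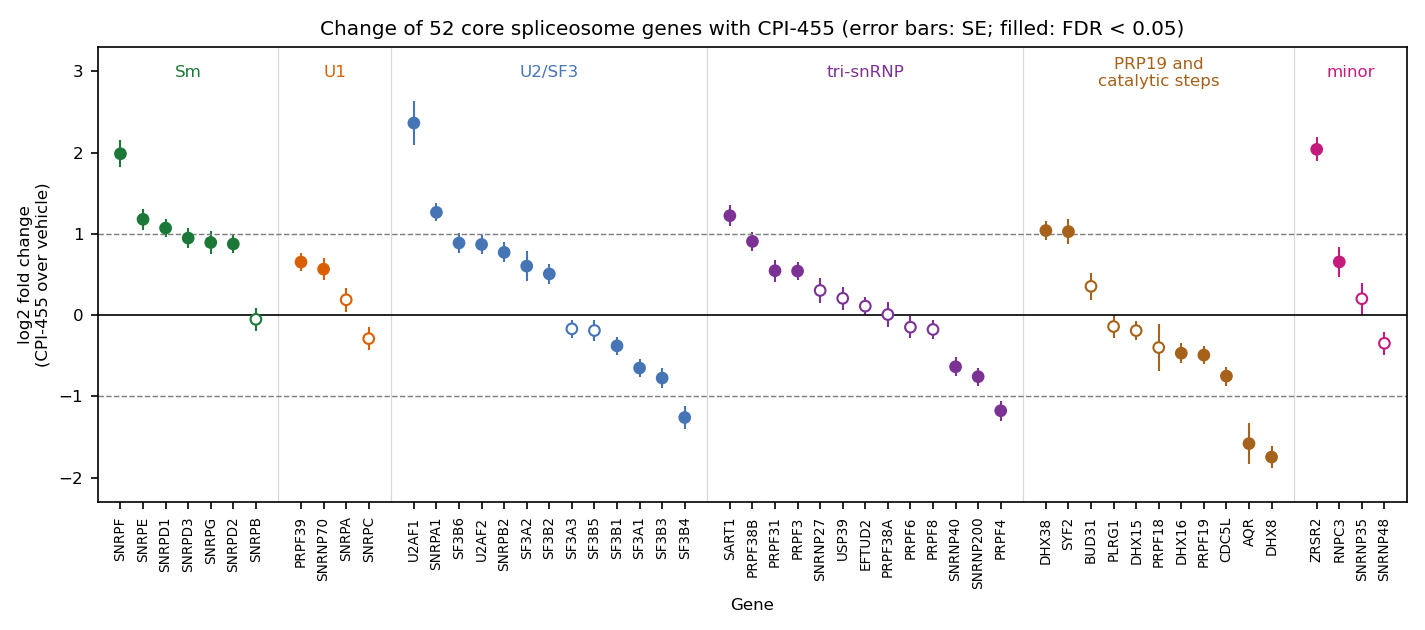
Log2 fold change of CPI-455 over vehicle (vertical axis) for each of the 52 genes (horizontal axis), grouped by class, with error bars of 1 standard error, filled points for an FDR below 0.05 and dashed lines at a 2-fold change. All 7 Sm genes except SNRPB are filled and above 0, while the PRP19 and catalytic-step genes run from DHX38 at 1.04 to DHX8 at -1.75.

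The promoters of SNRPF and ZRSR2, which had the largest rises apart from that of U2AF1, and of DHX8 and AQR, which had the largest falls, are shown for comparison. Each runs from 250 bases before to 50 bases after the RefSeq transcription start on GRCh38.p14 and is written 5′ to 3′ on the strand of the gene. Capitals mark matches on either strand. The motifs are CCGGAAG, the core bound by ETS factors, GGGCGG, the GC box bound by Sp1, and the CCAAT box, together with the palindromic site of NRF1, which allows several letters at some positions. The run of capitals that holds 2 overlapping GC boxes occurs once in DHX8 and once in ZRSR2, and the other long run in ZRSR2 is its NRF1 site.
SNRPF promoter, chr12:95858702-95859001, plus strand: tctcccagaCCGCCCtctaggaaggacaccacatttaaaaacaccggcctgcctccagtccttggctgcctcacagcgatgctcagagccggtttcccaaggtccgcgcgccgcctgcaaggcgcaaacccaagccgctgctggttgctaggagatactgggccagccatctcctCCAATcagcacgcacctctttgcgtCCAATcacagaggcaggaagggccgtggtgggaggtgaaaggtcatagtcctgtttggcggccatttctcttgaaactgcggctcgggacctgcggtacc
ZRSR2 promoter, chrX:15790234-15790533, plus strand: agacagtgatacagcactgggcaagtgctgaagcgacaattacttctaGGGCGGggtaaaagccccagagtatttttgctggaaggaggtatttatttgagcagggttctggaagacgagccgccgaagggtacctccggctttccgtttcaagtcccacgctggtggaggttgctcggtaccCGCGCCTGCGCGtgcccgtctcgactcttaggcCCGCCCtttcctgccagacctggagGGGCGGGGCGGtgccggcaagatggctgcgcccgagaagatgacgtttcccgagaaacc
DHX8 promoter, chr17:43483725-43484024, plus strand: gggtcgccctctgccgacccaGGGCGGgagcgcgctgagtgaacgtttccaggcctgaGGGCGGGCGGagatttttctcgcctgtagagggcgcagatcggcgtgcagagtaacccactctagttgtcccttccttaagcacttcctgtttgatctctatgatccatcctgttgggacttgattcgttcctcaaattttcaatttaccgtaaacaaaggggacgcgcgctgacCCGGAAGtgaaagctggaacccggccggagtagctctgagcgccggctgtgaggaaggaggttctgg
AQR promoter, chr15:34969693-34969992, minus strand: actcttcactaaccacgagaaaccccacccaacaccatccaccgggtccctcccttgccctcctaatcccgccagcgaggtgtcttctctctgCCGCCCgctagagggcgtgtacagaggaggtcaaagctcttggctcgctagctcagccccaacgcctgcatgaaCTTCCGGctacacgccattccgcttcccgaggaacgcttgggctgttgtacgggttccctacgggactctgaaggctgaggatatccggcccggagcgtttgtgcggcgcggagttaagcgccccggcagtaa
The promoter of SNRPF held 2 CCAAT boxes and 1 GC box, and that of ZRSR2 held 4 GC boxes and 1 NRF1 site. The promoters of the genes that fell, DHX8 and AQR, each held 1 ETS core, with 3 GC boxes in DHX8 and 1 in AQR. RefSeq promoters were matched for 47 of the 52 genes (56 promoters, since some genes have several starts). Of these 56 promoters 51.8% held the ETS core, against 10.3% of the 35116 promoters in the RefSeq table. No filter on gene type or expression was applied to that table, while all 52 genes are protein-coding and passed the count filter. The shares among promoters of similarly expressed protein-coding genes were not computed. The GC box was found in 60.7% against 45.0% and the CCAAT box in 32.1% against 34.6%. The letters of a TATA box, TATAAA, were found in 1.79% against 11.5%. The NRF1 site was found in 1.79% against 2.00%, and without its outermost base on either side in 8.93% against 4.04%. The androgen response element had 0 matches in the 56 promoters and was found in 0.179% of the table. The ETS core was found for 5 of the 8 genes called higher that have a promoter in the table and for 3 of the 4 called lower. A letter match is not evidence of binding, and binding was not measured here.

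The Sm genes rose together, with SNRPB as the exception. They encode the small proteins that close the ring on most spliceosomal RNAs and that the SMN complex loads onto them. Of the 7 genes 6 rose with an FDR below 0.05, 3 of them by at least 2-fold, and none passed in the lower direction. The rises are 85.71% at any fold and 42.86% called, beside 29.8% and 21.0% of all genes tested. In the lower direction 32.8% of all genes passed at any fold. The summed level of the Sm genes was 780 and 825 CPM with vehicle and 1387 and 1431 CPM with CPI-455. The median log2 fold change was 0.95, and it stayed between 0.76 and 1.12 across the scalings, filters and trend corrections tried.

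SNRPF, which encodes the Sm F protein (chromosome 12, 95858928 to 95903828, GRCh38, 7 exon blocks), was at 44.6 and 48.4 CPM with vehicle and at 154 and 216 CPM with CPI-455. The groups did not overlap, and even the raw counts were higher in the shallower libraries, at 1372 and 1089 with CPI-455 against 943 and 1058 with vehicle. SNRPF rose 3.96-fold (log2 1.99, standard error 0.17, FDR = 9.25e-06), the largest change of the class. SNRPE, encoding Sm E (chromosome 1, 203861603 to 203870550), rose from 77.4 and 84.3 CPM to 169 and 197 CPM. Its log2 fold change was 1.18 (standard error 0.13, FDR = 3.87e-05), and it fell short of 2-fold, at 0.92, once the trend of each library on length and GC content was taken out, and at 0.99 with library totals alone, and was not called with glmTreat. SNRPD1, the gene of Sm D1, was at 92.1 and 96.4 CPM with vehicle and at 192 and 204 CPM with CPI-455, a 2.10-fold rise (log2 1.07) that was not called with library totals alone, with no filter, with glmTreat or without CPI-455 replicate 2.

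SNRPD3, SNRPG and SNRPD2, encoding Sm D3, G and D2, rose by log2 0.95, 0.89 and 0.88, each with both CPI-455 libraries above both vehicle libraries. SNRPB, which encodes the B and B′ proteins, stood apart from the rest of the ring. It was at 250 and 283 CPM with vehicle and at 289 and 224 CPM with CPI-455, so the groups overlapped, and its log2 fold change was -0.05 (standard error 0.14, FDR = 0.761). With the length and GC trend removed its value became -0.84. Named pseudogenes number 10 for SNRPE and 20 for SNRPG, and those of SNRPG held 239 and 202 counts in the vehicle libraries and 146 and 100 in the CPI-455 libraries. Fragments that matched several places were not counted, so the levels of these short genes are less certain.

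Per kilobase of exon, the Sm genes were spread widely with vehicle and lay closer together with CPI-455. SNRPB was the highest with vehicle at 209 ± 18.2 CPM per kilobase (SD, n = 2), followed by SNRPD2 at 106, SNRPE at 54.8, SNRPD3 at 34.9, SNRPG at 30.5, SNRPD1 at 19.2 and SNRPF at 15.3 ± 0.883. No neighbours in that order had overlapping libraries. With CPI-455 SNRPF moved up to 60.8 ± 14.3 CPM per kilobase and overlapped SNRPD3 and SNRPG, while SNRPB at 201 ± 36.1 overlapped SNRPD2 at 195 ± 0.734. The ratio of the highest to the lowest gene was 13.4 and 13.9 in the vehicle libraries and 5.78 and 4.67 in the CPI-455 libraries. These values use the summed exon length of each gene, not the length of the transcript in use.

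**Figure D2:**
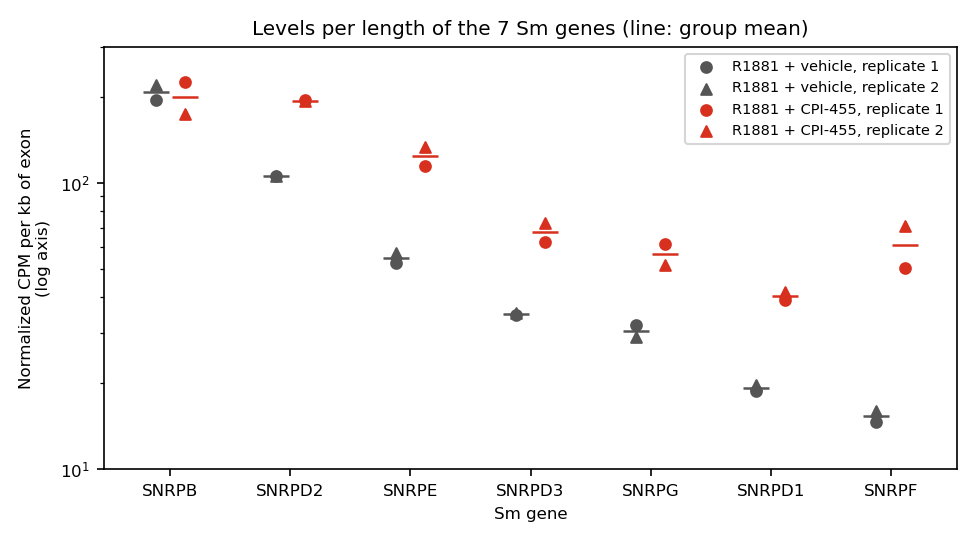
Level of each Sm gene in each library in normalized CPM per kilobase of exon (log axis), with circles and triangles for replicates 1 and 2 and a line at each group mean. With vehicle the genes run from 209 down to 15.3, and with CPI-455 every gene except SNRPB lies above its vehicle libraries.

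Among the U1 genes none was called, beside 21.0% of all genes tested called higher and 21.3% lower. This snRNP pairs with the 5′ splice site. SNRNP70, encoding U1-70K (chromosome 19, 49085419 to 49108605), was at 314 and 253 CPM with vehicle and at 444 and 394 CPM with CPI-455. Its rise of log2 0.57 (standard error 0.13, FDR = 0.0046) was past the FDR threshold but no longer so without vehicle replicate 2, at 0.39 (FDR = 0.0967). PRPF39, a U1-associated factor important for alternative splicing (chromosome 14, 45084099 to 45116282), was at 104 and 95.7 CPM with vehicle and at 161 and 154 CPM with CPI-455. It rose by log2 0.65 (standard error 0.11, FDR = 9.15e-04), and by 1.13 with the trend removed, where it was called higher. SNRPA and SNRPC, encoding the A and C proteins of U1, had log2 fold changes of 0.19 (standard error 0.15) and -0.29 (standard error 0.14) and did not pass. With the trend removed the value of SNRPC was -0.88.

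The U2 and SF3 genes did not move as a block. The U2 snRNP recognises the branch point, and U2AF binds the 3′ splice site before it. Of the 13 genes 7 rose and 4 fell with an FDR below 0.05, 2 and 1 of them by at least 2-fold. At any fold these are 53.85% and 30.77%, beside 29.8% and 32.8% of all genes tested. Called were 15.38% higher and 7.692% lower, beside 21.0% and 21.3%. The summed level of the class was 2211 and 2348 CPM with vehicle and 2789 and 2557 CPM with CPI-455. The median log2 fold change was 0.51, and it was 0.21 without CPI-455 replicate 1.

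SNRPA1, encoding the U2 A′ protein (chromosome 15, 101281510 to 101295282), was at 108 and 107 CPM with vehicle and at 266 and 251 CPM with CPI-455. It rose 2.40-fold (log2 1.26, standard error 0.11, FDR = 1.15e-05). SNRPB2, the gene of its partner U2 B″, rose by log2 0.77. Both U2AF genes rose, U2AF2 (the large subunit, which contacts the polypyrimidine tract) from 238 and 233 CPM to 468 and 391 CPM, by log2 0.87 (standard error 0.12, FDR = 1.91e-04). U2AF1, the small subunit that reads the AG at the 3′ splice site, was counted 124 and 87 times with vehicle, or 5.87 and 3.98 CPM, and 254 and 110 times with CPI-455, or 28.6 and 21.8 CPM.

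The log2 fold change of U2AF1 was the largest of the 52 genes, at 2.36 (standard error 0.27, FDR = 6.19e-05), and its level is the least certain. Of the 10916 words of 50 bases in its counted exons (chromosome 21, 43092956 to 43107587), 94.0% occur unchanged in a second copy at 6484623 to 6499261 on the same chromosome. Fragments from such words were not counted for either copy, and the second copy held 27 and 31 counts in the vehicle libraries and 49 and 13 in the CPI-455 libraries. The low CPM of U2AF1 is therefore no measure of its abundance. Its fold change rests on the fragments that could be counted, 87 to 254 in a library, and is uncertain too.

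The subunits of SF3B, the complex that holds the branch point, ran in opposite directions. SF3B4 (chromosome 1, 149923317 to 149928344) fell from 97.6 and 97.0 CPM with vehicle to 36.4 and 45.4 CPM with CPI-455, 2.40-fold lower (log2 -1.26, standard error 0.14, FDR = 6.15e-05). SF3B3 (chromosome 16, 70523788 to 70577670) fell from 400 and 425 CPM to 262 and 218 CPM (log2 -0.78, standard error 0.12, FDR = 4.50e-04).

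SF3B6, encoding the p14 subunit that lies near the branch point adenosine, went the other way, from 102 and 114 CPM with vehicle to 192 and 207 CPM with CPI-455 (log2 0.89). SF3B2 rose from 458 and 557 CPM to 745 and 696 CPM (log2 0.51). SF3B1, the largest subunit and a frequent target of mutation in blood cancers, was at 245 and 242 CPM with vehicle and at 182 and 193 CPM with CPI-455. The change of SF3B1, log2 -0.38 (standard error 0.11, FDR = 0.0123), turned to 0.19 when the length and GC trend was removed, the only sign change among the 35 genes past the FDR threshold under the alternatives tried.

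SF3B5, the smallest subunit, was at 89.3 and 77.5 CPM with vehicle and at 74.1 and 72.0 CPM with CPI-455, and its log2 fold change of -0.19 (standard error 0.13) did not pass. It is a single exon of 693 bases, shorter than any other of the 52 genes. Removal of the length and GC trend moved its value to -1.55, and it was then called lower. In SF3A, which joins SF3B to U2, SF3A2 rose by log2 0.60 and SF3A1 fell, with a log2 fold change of -0.65, while SF3A3 was at -0.17 (standard error 0.11) and did not pass. The rise of SF3A2 rested on unequal libraries, 108 and 122 CPM with vehicle and 212 and 135 CPM with CPI-455, and did not pass with library totals alone, without vehicle replicate 1 or without CPI-455 replicate 1.

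The tri-snRNP genes had the class median nearest to 0, a log2 fold change of 0.11 that became -0.080 with library totals alone, -0.045 with no filter and 0.37 with the trend removed. It was 0.052 without vehicle replicate 2 and 0.038 without CPI-455 replicate 1. This particle carries U4, U5 and U6 into the spliceosome and holds its catalytic scaffold. Of the 13 genes 4 rose and 3 fell with an FDR below 0.05, 1 in each direction by at least 2-fold. At any fold these are 30.77% and 23.08%, beside 29.8% and 32.8% of all genes tested. Called were 7.692% in each direction, beside 21.0% higher and 21.3% lower. The summed level of the class was 2186 and 2303 CPM with vehicle and 2290 and 2165 CPM with CPI-455, so the groups overlapped.

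SART1, which encodes a tri-snRNP protein (chromosome 11, 65961689 to 65979828), rose from 72.5 and 71.0 CPM with vehicle to 182 and 153 CPM with CPI-455. The rise was 2.33-fold (log2 1.22, standard error 0.13, FDR = 3.20e-05). PRPF38B (chromosome 1, 108692323 to 108701803), a relative of the B complex protein PRPF38A, was at 194 and 199 CPM with vehicle and at 344 and 392 CPM with CPI-455 (log2 0.91, standard error 0.11, FDR = 1.06e-04). With the trend removed it reached 1.42 and was called. PRPF38A itself was at 105 and 111 CPM with vehicle and at 124 and 92.0 CPM with CPI-455, so its groups overlapped.

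The U4/U6 proteins PRPF3 and PRPF4, which bind each other, differed in direction. PRPF4 (chromosome 9, 113275343 to 113292905) fell from 117 and 124 CPM with vehicle to 53.2 and 52.9 CPM with CPI-455, 2.26-fold lower (log2 -1.18, standard error 0.12, FDR = 3.24e-05). With the trend removed PRPF4 was at -0.98 and no longer past 2-fold. PRPF3 was at 103 CPM in both vehicle libraries and at 156 and 143 CPM with CPI-455 (log2 0.54), and PRPF31, another U4/U6 protein, rose by 0.55.

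Of the U5 proteins, those that passed fell. SNRNP200, the helicase that unwinds U4 from U6 (chromosome 2, 96274336 to 96305515), was at 465 and 531 CPM with vehicle and at 299 and 290 CPM with CPI-455. Its log2 fold change was -0.76 (standard error 0.11, FDR = 3.16e-04). SNRNP40 fell from 124 and 121 CPM to 78.6 and 79.1 CPM (log2 -0.64). PRPF8, the scaffold of the catalytic centre, EFTUD2, its GTPase, and PRPF6, a bridge to U4/U6, had log2 fold changes of -0.18, 0.11 and -0.15 with standard errors from 0.11 to 0.13, and none passed. USP39 and SNRNP27, other proteins of the tri-snRNP, were at 0.21 and 0.30 and did not pass either. Per kilobase of exon PRPF8 was the highest of the class with vehicle at 52.5 ± 2.01 CPM, and PRPF38B with CPI-455 at 63.3 ± 5.83.

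The PRP19 complex and catalytic-step genes had the lowest median of the 6 classes, -0.40 on the log2 scale, and it lay between -0.59 and -0.21 under the alternatives that kept all 4 libraries. The PRP19 complex stabilises the activated spliceosome, and the helicases drive each transition. Of the 11 genes 5 fell and 2 rose with an FDR below 0.05, 2 in each direction by at least 2-fold. At any fold these are 45.45% lower and 18.18% higher, beside 32.8% and 29.8% of all genes tested. Called were 18.18% in each direction, beside 21.3% lower and 21.0% higher. The summed level of the class was 960 and 1026 CPM with vehicle and 886 and 877 CPM with CPI-455.

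DHX8, the helicase that releases the spliced mRNA (chromosome 17, 43483865 to 43544463), was at 103 and 112 CPM with vehicle and at 33.7 and 29.9 CPM with CPI-455. This was 3.36-fold lower (log2 -1.75, standard error 0.14, FDR = 6.52e-06), the largest fall of the 52 genes, and the groups were well separated. AQR, an RNA helicase bound to the intron (chromosome 15, 34851782 to 34969839), fell from 49.4 and 55.8 CPM to 22.4 and 11.5 CPM. The fall of AQR, log2 -1.58 (standard error 0.25, FDR = 4.79e-04), was less exact, since its CPI-455 libraries differed and held 199 and 58 counts, and it ranged from -2.21 to -1.28 as each library was left out. These are the genes with 9302 and 13528 bases of counted exon, and with the trend removed both were still called lower, at -1.35 and -1.09.

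DHX38, the helicase of the second catalytic step (chromosome 16, 72093562 to 72112912), went the other way from DHX8, from 109 and 116 CPM with vehicle to 246 and 215 CPM with CPI-455. It rose 2.06-fold (log2 1.04, standard error 0.12, FDR = 6.06e-05). SYF2, a PRP19-associated protein (chromosome 1, 25222679 to 25232502), rose from 29.4 and 34.8 CPM to 60.8 and 70.4 CPM (log2 1.03, standard error 0.15, FDR = 3.50e-04). Both lay close to the 2-fold limit and were called with the trend removed. Neither was called with library totals alone, with no filter, with glmTreat or without vehicle replicate 1, and DHX38 was not called without CPI-455 replicate 1 or SYF2 without CPI-455 replicate 2.

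PRPF19, the ubiquitin ligase that names the complex, CDC5L, its core partner, and DHX16, the helicase that acts before the first catalytic step, fell by less than 2-fold, with log2 fold changes of -0.49, -0.75 and -0.47. With the trend removed CDC5L no longer passed, at -0.21. PLRG1, DHX15, PRPF18 and BUD31 did not pass, with values from -0.40 to 0.35. PRPF18 was low, at 7.48 and 8.70 CPM with vehicle and 6.75 and 5.35 CPM with CPI-455, and 48.5% of its exon bases, like 46.5% of those of BUD31, are shared with other genes, where fragments were not counted.

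In the minor spliceosome ZRSR2 was the gene called. The summed level of the 4 genes was 120 and 110 CPM with vehicle and 190 and 192 CPM with CPI-455. This sum includes the rises of ZRSR2 and RNPC3 given below, and the 4 genes did not rise together. SNRNP48 was at 51.4 and 47.5 CPM with vehicle and at 39.0 and 38.7 CPM with CPI-455. SNRNP35 was at 25.7 and 21.9 CPM with vehicle and at 30.9 and 23.2 CPM with CPI-455, so its groups overlapped. ZRSR2 (chromosome X, 15790472 to 15823260) recognises the 3′ splice site of minor introns and is related to U2AF1. It was at 24.0 and 22.3 CPM with vehicle and at 87.2 and 104 CPM with CPI-455, and its raw counts of 775 and 523 with CPI-455 exceeded the 507 and 486 with vehicle despite the lower depth. The rise was 4.11-fold (log2 2.04, standard error 0.15, FDR = 4.20e-06), with values from 1.85 to 2.22 under the alternatives that kept all 4 libraries.

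RNPC3, the 65 kDa protein that bridges U11 and U12 (chromosome 1, 103525691 to 103555239), was at 19.2 and 18.6 CPM with vehicle and at 32.6 and 26.6 CPM with CPI-455. Its rise of log2 0.65 (standard error 0.18, FDR = 0.011) did not pass with library totals alone (FDR = 0.05003), with no filter (FDR = 0.0559) or without either vehicle library (FDR = 0.116 and 0.15). With the trend removed it was larger, at 1.21, and was called higher. In addition, 18.9% of its exon bases are shared with AMY2B. SNRNP35 and SNRNP48, proteins of the U11/U12 particle, had log2 fold changes of 0.20 (standard error 0.20) and -0.35 (standard error 0.14) and did not pass. Per kilobase of exon ZRSR2 was the highest of the 4 genes with vehicle, at 11.1 ± 0.596 CPM, and was at 45.9 ± 5.64 with CPI-455, beside 6.66 ± 0.0431 for SNRNP48.

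**Figure D3:**
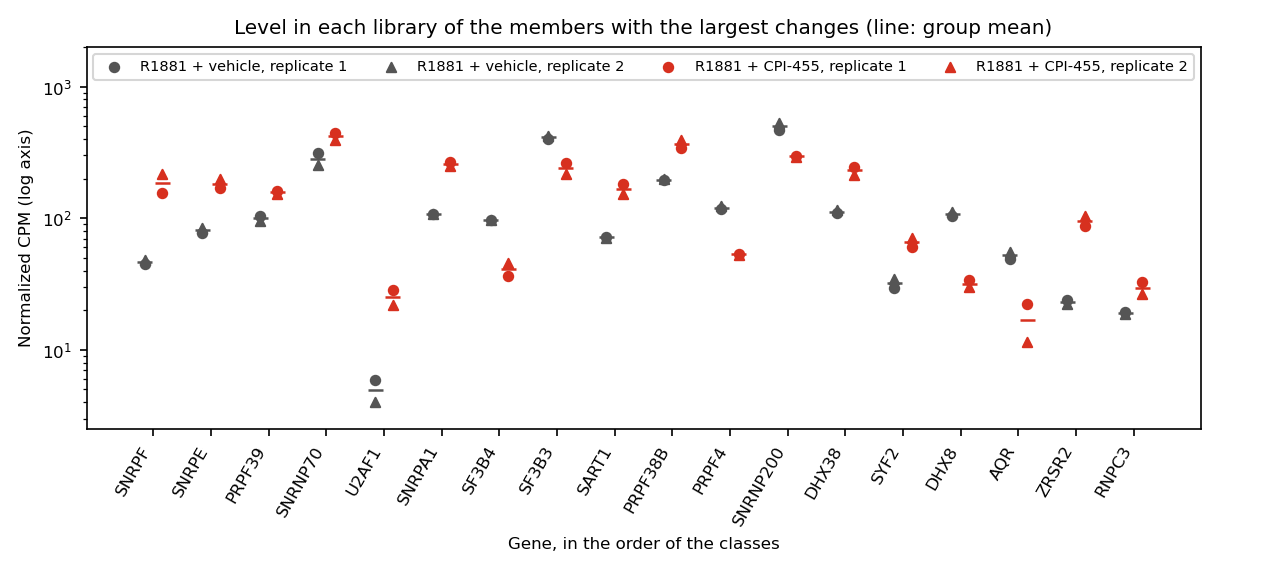
Normalized CPM (log axis) in each library of the genes with the largest changes past an FDR of 0.05 in each class, with circles and triangles for replicates 1 and 2 and a line at each group mean. The libraries of the 2 groups do not overlap for any gene shown, but the genes were chosen for their changes. Of all genes tested 39.1% had both CPI-455 libraries above both vehicle libraries and 42.8% below. AQR has the widest gap between its CPI-455 replicates, 22.4 and 11.5 CPM.

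Exon length moved with the change across the transcriptome. The Spearman correlation between log2 fold change and counted exon length was -0.25 across all genes tested, -0.14 across protein-coding genes and -0.26 across the 52 genes, all within the same 4 libraries, so genes are not independent replicates. Protein-coding genes of 1000 to below 3000 bases had a median log2 fold change of 0.13, those of 3000 to below 6000 bases -0.24 and those of 6000 bases and above -0.37. The spliceosome genes did not fall step by step, with medians of 0.45 for the 16 genes of the first range, 0.54 for the 21 of the next and -0.29 for the 14 of the last. Removing a smooth trend on length and GC content from each library left a correlation with length of 0.05 across the 52 genes, while their correlation with GC content went from -0.04 to -0.30. With it removed, the medians were 0.38 for the 52 genes, 0.86 for the Sm genes, 0.20 for U1, 0.38 for U2 and SF3, 0.37 for the tri-snRNP, -0.21 for PRP19 and the catalytic steps and 0.84 for the minor spliceosome. The share of each class change that goes with length was not tested, and neither were differences between the classes.

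**Figure D4:**
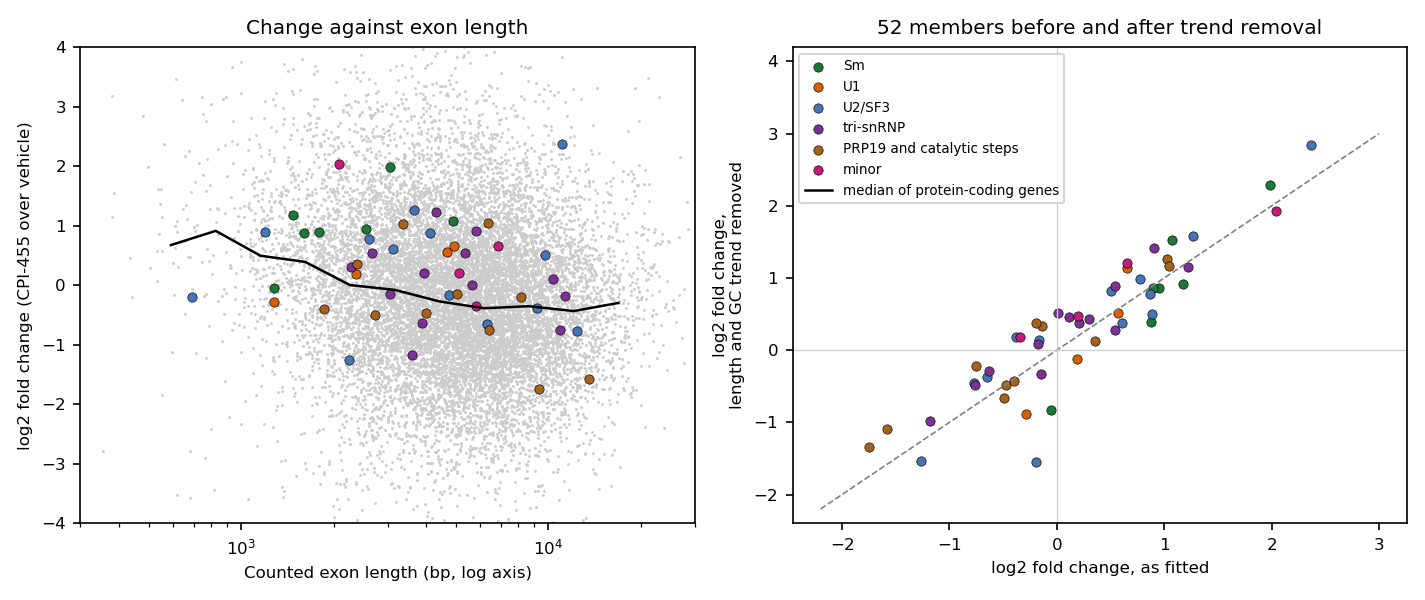
Left, log2 fold change of CPI-455 over vehicle against counted exon length (log axis) for protein-coding genes (grey), the 52 spliceosome genes (coloured by class) and the median of protein-coding genes in length bins (black line), with grey points beyond the axis limits not drawn. Right, the log2 fold change of the 52 genes before and after the length and GC trend was removed, with the dashed line where both are equal, and SF3B5 (-0.19 and -1.55) and SNRPB (-0.05 and -0.84) farthest below it.

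Another 71 genes of the same machinery, outside the 52, were read in the same fit. Of these 18 were called higher and 6 lower, beside the 21.0% and 21.3% of all genes tested, and at any fold 34 were higher and 24 lower with an FDR below 0.05, beside 29.8% and 32.8%. In shares of the 71 genes these are 25.4% called higher, near the share of all genes tested, 8.45% called lower, and 47.9% and 33.8% at any fold. Of the protein-coding genes tested 15.6% were called higher and 24.4% lower, and 26.3% and 38.7% passed at any fold. The median log2 fold change of the 71 was 0.30, and it was 0.17 without CPI-455 replicate 2, 0.12 with library totals alone and 0.48 with upper-quartile normalization. Between 13 and 21 of the 71 were called higher and between 1 and 8 lower under the alternatives, the lowest of both with glmTreat. The LSm genes, whose products form the ring on U6 RNA, had a median of 1.02, with 4 of 7 called higher (LSM3, LSM5, LSM7 and LSM8), and LSM4 fell by less than 2-fold (log2 -0.44). The other minor spliceosome genes had a median of 1.03, with 3 of 6 called higher (SCNM1, CENATAC and ZCRB1) and none lower.

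The genes of Sm ring assembly cover the SMN complex, which loads the ring onto RNA, and other factors such as PRMT5. Of these 13 genes 3 were called higher and 4 lower. These are 23.08% and 30.77%, beside 21.0% and 21.3% of all genes tested. GEMIN7, GEMIN4, GEMIN6 and DDX20 (Gemin3) were the genes called lower, GEMIN7 from 44.7 and 42.0 CPM with vehicle to 17.9 and 19.0 CPM with CPI-455 and DDX20 from 131 and 127 CPM to 60.7 and 52.3 CPM. GEMIN5, STRAP and PRMT5 fell by less than 2-fold (log2 -0.48, -0.40 and -0.38). The genes called higher were SMN1, SMN2 and GEMIN2, and GEMIN8 rose by less than 2-fold (log2 0.76). At any fold 5 of the 13 genes were higher and 7 lower with an FDR below 0.05. These are 38.46% and 53.85%, beside 29.8% and 32.8% of all genes tested. SMN1 was at 5.35 and 5.68 CPM with vehicle and at 13.7 and 22.6 CPM with CPI-455. SMN2 was at 6.86 and 4.58 CPM with vehicle and at 11.8 and 14.9 CPM with CPI-455. Fragments shared between these near-identical copies were not counted, so both calls are less certain.

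The largest rises of the 71 were those of DDX39B, an early spliceosome and mRNA export helicase, from 242 and 180 CPM to 923 and 830 CPM (log2 2.06, standard error 0.15), of SCNM1 (log2 1.83) and of SMN1 (log2 1.69). The largest fall was that of MFAP1, a B complex protein, from 63.7 and 63.6 CPM to 18.6 and 12.7 CPM (log2 -1.99, standard error 0.19, FDR = 1.91e-05 in edgeR's test). The 5 exon junction complex genes included none called. The other U1 and U2 factors had 3 of 11 called higher and 0 lower. For the other tri-snRNP and B complex factors the calls were 2 of 12 in each direction. Those of the other PRP19 and catalytic factors were 3 of 17 higher and 0 lower. Called higher were thus 27.27%, 16.67% and 17.65%, beside 21.0% of all genes tested, of which 21.3% were called lower.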

How the data were processed

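RNA-seq of 4 LNCaP libraries was used, 2 per treatment, grouped by the sample titles. The authors trimmed reads with Trim Galore and cutadapt, checked them with FastQC, aligned them to GRCh38 with STAR and deposited raw fragment counts per gene from featureCounts v1.5.0-p1 on Ensembl release 83, without normalization. Per the file headers strand was not used and fragments matching several places or genes were not counted. RNA selection is not given in the sources used here, and the labels and methods differ on the final DMSO concentration.

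Counts were fitted with edgeR 4.0.16 in R 4.3.3 (glmQLFit and glmQLFTest, TMM factors, filterByExpr with a minimum count of 10), with 2 libraries per group and Benjamini-Hochberg adjustment over 17600 genes. A gene was called when its FDR was below 0.05 and its fold change 2 or more. A permutation over 2 against 2 libraries cannot reach that threshold, so no such test was used. The 3-count floor was 0.145 to 0.555 CPM and covers counting error only. Gene symbols were matched for 56558 of 60675 genes, and lengths are the summed exon bases in the files. For 11 of the 52 genes over 10% of the exon bases were shared with another gene, PRPF31, SNRNP35, PRPF39 and DHX38 among them. The 52 genes, the other lists and the rule for named genes (in each class the 2 largest rises and 2 largest falls past the FDR threshold, and 3 of each among the other spliceosome genes) were chosen with earlier results of these data known. Alternatives were RLE, upper-quartile and total scaling, no filter, DESeq2 1.42.0, glmTreat, a replicate block, a length and GC trend (mgcv 1.9.3), both together, and leaving out each library. On simulated counts for 17029 genes with 200 changed by log2 1.5, the test called 151 of them (75.5%) and 2 others. In the data far more genes were called, 7454 of 17600, so the simulation does not test the choice of scaling. Promoters came from RefSeq. Some marker genes are not reported here.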

Additional observations from a re-analysis of the deposited data

How the results depend on the processing

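RLE scaling, DESeq2 and the replicate block kept all 9 genes called higher and all 4 called lower. Upper-quartile normalization called 15 higher, library totals alone 5 and glmTreat 4, and glmTreat called 2 lower. Library totals alone dropped DHX38, SNRPD1, SNRPE and SYF2, no filter dropped DHX38, SNRPD1 and SYF2, and glmTreat dropped DHX38, SNRPD1, SNRPE, SYF2, SART1, PRPF4 and SF3B4. At any fold 19 genes were lower with library totals alone against 12. These scalings moved the median log2 fold change of all genes tested from -0.04 to 0.14 with upper-quartile normalization, -0.23 with library totals alone and -0.41 with no filter, which also tests more genes. The median of the 52 genes followed, at 0.38, 0.013 and 0.049 in that order, and was 0.38 with the length and GC trend removed, as it was with the replicate block added (0.377). In the same order of 5 settings the medians were 1.12, 0.76, 0.79, 0.86 and 0.85 for Sm, 0.55, 0.19, 0.22, 0.20 and 0.20 for U1, 0.29, -0.080, -0.045, 0.37 and 0.37 for the tri-snRNP, and -0.23, -0.59, -0.56, -0.21 and -0.22 for PRP19 and the catalytic steps. For the minor spliceosome the median was 0.24 with library totals alone, 0.84 with the trend removed and 0.83 with trend and block. The tri-snRNP median therefore changed sign with library totals alone and with no filter.

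Leaving out each library in turn, where the lone library of a group is assumed to vary like the other group, gave 7 to 9 genes called higher and 4 lower in every case, and 20 to 25 higher and 9 to 16 lower at any fold. The medians ranged from 0.12 to 0.21 for the 52 genes, 0.94 to 1.04 for Sm, 0.22 to 0.45 for U1, 0.21 to 0.63 for U2 and SF3, 0.038 to 0.12 for the tri-snRNP, -0.51 to -0.32 for PRP19 and the catalytic steps and 0.21 to 0.54 for the minor spliceosome. The lowest values of the 52 genes, U1, U2 and SF3, the tri-snRNP and the minor spliceosome, and the highest of Sm, came without CPI-455 replicate 1, which leaves the shallowest library alone. Of the 35 genes past the FDR threshold, RNPC3, SF3B1, DHX16, SF3B2 and SF3A2 did not pass without vehicle replicate 1. RNPC3, SF3B1, DHX16, PRPF19, SNRNP70 and PRPF31 did not pass without vehicle replicate 2, and SF3A2 did not without CPI-455 replicate 1. The replicate block changed no call among the 52 genes. The numbers are all that pairs the libraries, and the deviations of the replicates numbered 1 had a correlation of 0.04 across genes. The cause of these shifts was not tested. At 5401588 counted fragments in the shallowest library, genes of few counts such as PRPF18, U2AF1 and AQR were measured least precisely. Their standard errors were 0.29, 0.27 and 0.25.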
